A study of Mus musculus with 531 samples.

Results

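The 8 genes Aqp8, Cited1, Fam198b, Amot, Bag2, Srgn, Cyp4f14 and Plac1, of 22084 genes counted in single cells of early mouse embryos, were followed from the first extraembryonic endoderm of the blastocyst to the embryo at the start of gastrulation. They were chosen by their read counts at embryonic day (E) 4.5, where earlier results of these same data showed more reads of each in endoderm than in epiblast cells, so their E4.5 levels are a description and are not tested. In short, Cited1 and Amot were read in every endoderm-like cell at all 3 stages but for 1 E4.5 cell without Cited1. Srgn was read in every endoderm-like cell and lay far lower at E6.5 than at both earlier stages. Aqp8 and Bag2 were read in some E5.5 cells only, Fam198b and Plac1 had no read in the E5.5 endoderm-like cells and low levels at E6.5, and Cyp4f14 had no read in any class after E4.5.

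RNA was sequenced by scM&T-seq, in which the DNA and the messenger RNA of 1 cell are separated, and the messenger RNA is copied and amplified along its length by the Smart-seq2 method. C57Bl/6Babr embryos, with no genetic change or treatment, gave 91 cells from 5 embryos at E4.5, 80 cells from 1 embryo at E5.5 and 93 cells from 2 embryos at E6.5. The trophectoderm, the outer layer of the blastocyst, had been removed by immunosurgery at E4.5. Visceral endoderm and extraembryonic ectoderm had been taken off the epiblast by hand at E5.5, and extraembryonic tissue at E6.5. How the later endoderm cells came to be among those sequenced is not stated in the sources used here. Of 264 cells, 217 held at least 50000 reads and 2000 detected genes and were kept, with 112008 to 8904445 reads each.

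At the blastocyst stage the inner cell mass parts into the epiblast, which builds the embryo proper, and the primitive endoderm, which covers it. Primitive endoderm then gives parietal endoderm, which lays down basement membrane along the trophoblast, and visceral endoderm, a polarised epithelium that takes up and secretes nutrients and signals to the epiblast beneath it. GATA factors and SOX17 mark the lineage throughout, while transport proteins such as transthyretin (Ttr) and the apolipoproteins come up as visceral endoderm matures.

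Cells were classed by 13 endoderm and 12 epiblast marker genes, none of which is among the 8 genes. The difference between the mean log2(CPM + 1) of both lists, where CPM are counts per 1e6 reads of the cell, had to be 2 or more for an endoderm-like cell and -1 or less for an epiblast-like cell. Endoderm-like cells numbered 51, 8 and 12 in the order of the stages, and epiblast-like cells 19, 51 and 15. At E6.5 another 24 cells were mesoderm-like, by T and at least 6 of 11 mesoderm markers, and 32 remained unclassed. The 13 endoderm markers summed per cell to a median of 13596 CPM in E4.5 endoderm-like cells and 1975 CPM in E4.5 epiblast-like cells. With reads pooled over the cells of a class, Ttr went from 88.5 CPM in endoderm-like cells of the first stage to 2646 and then 8360, and Apoa1 from 1.61 to 6647 and 3806, so the later cells carried visceral endoderm genes.

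Some features of the libraries touch every result. All 8 E5.5 endoderm-like cells, and none of the other 51 E5.5 cells, have a cell number in the labels that is a multiple of 12, and a technical difference that follows the numbering cannot be told apart from the class there. Each later stage also has a label prefix of its own, so stage and the batch a prefix may mark cannot be told apart. The 8 E5.5 endoderm-like cells also held few detected genes, with a median of 4224 at a median depth of 1806100 reads, against 7052 genes and 1028908 reads in endoderm-like cells at E4.5 and 9316 genes and 1204720 reads at E6.5. The part of this in genes without a read at E5.5 was not tested. At E6.5 the classes were not clean. Ttr stood at 614 CPM in epiblast-like and 534 CPM in mesoderm-like cells, against 0.025 CPM in E5.5 epiblast-like cells. Pou5f1 stood at 91.1 CPM in E6.5 endoderm-like cells, against 0.45 CPM at E5.5. Endoderm-like cells of the first stage held more Pou5f1, at 494 CPM with reads in 50 of 51 cells. Pou5f1 reads in this class were therefore not particular to E6.5. The marker difference ran on without a gap, and 14 E6.5 cells lay within 1 of the endoderm threshold. Trophoblast markers were also read at E6.5, with a median sum over 11 markers of 63.6 CPM (0 to 333) in endoderm-like and 75.9 CPM (7.68 to 506) in epiblast-like cells. The part of this mixing in the results was not tested. In E4.5 embryo 4, all 24 cells had reads of Y-linked genes, and in embryo 5 this was so for 8 of 18.

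**Figure D1:**
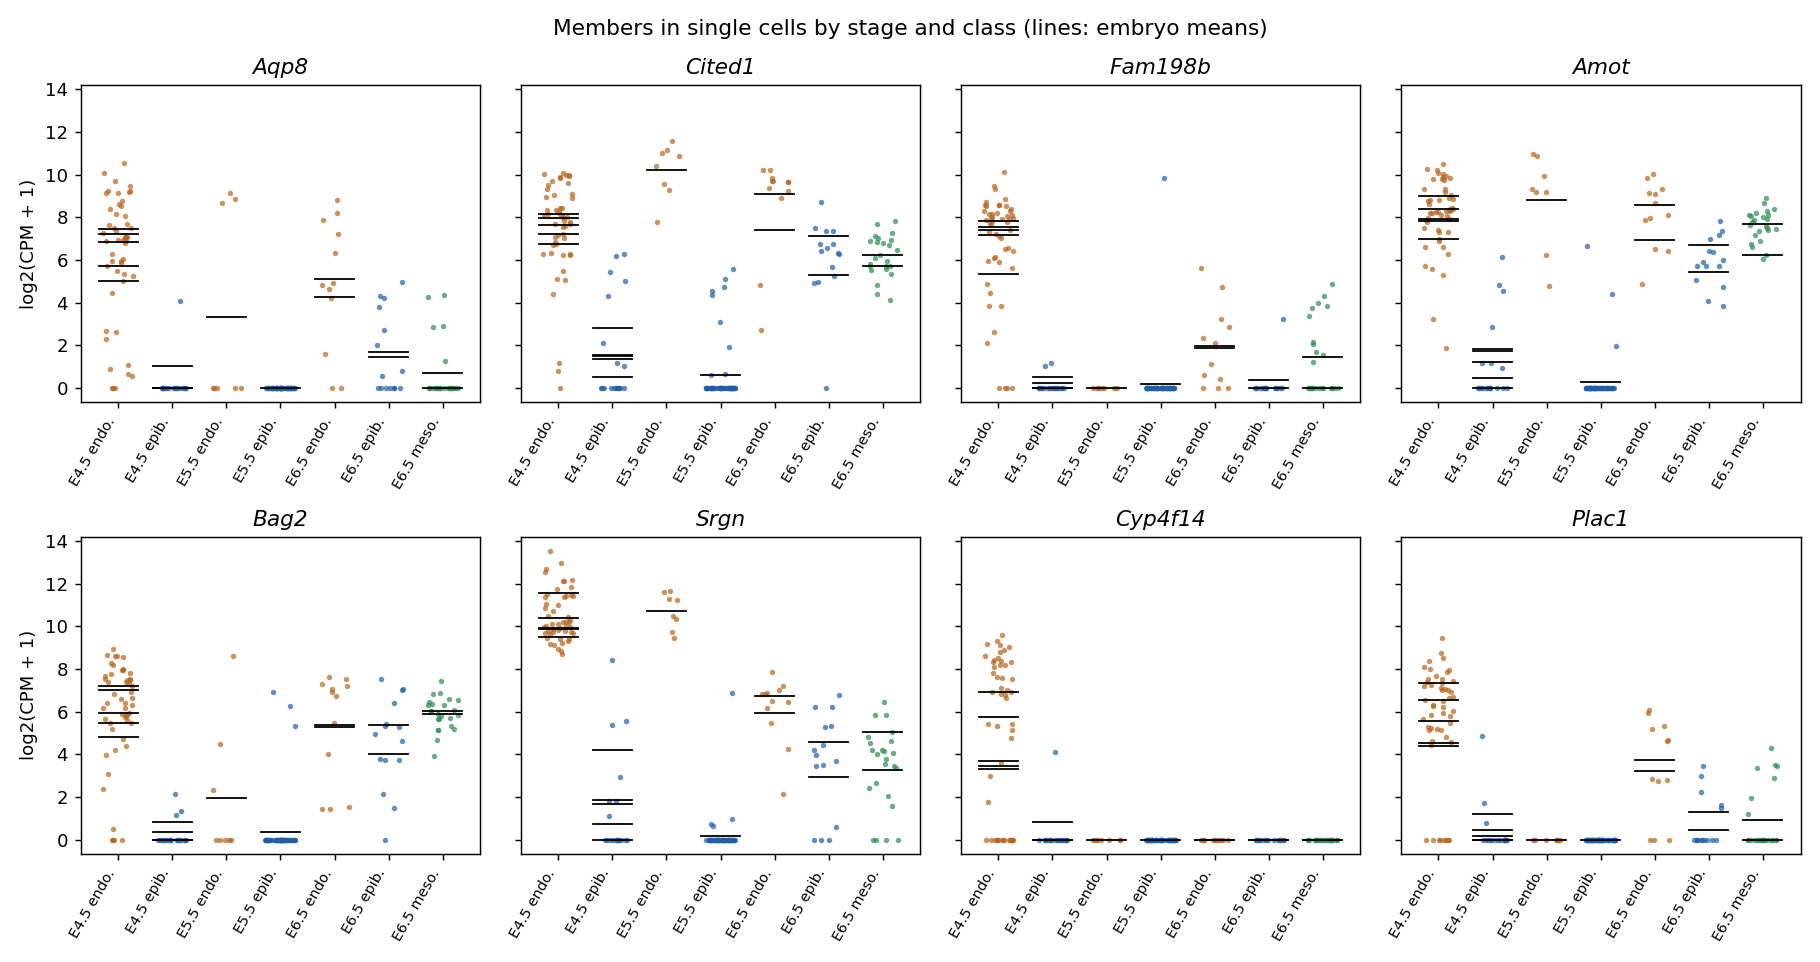
Level of each gene in single cells, as log2(CPM + 1) on the vertical axis, by stage and class on the horizontal axis (endo., endoderm-like; epib., epiblast-like; meso., mesoderm-like). Points are cells and black lines are embryo means; Cited1 and Amot stay high in endoderm-like cells at all stages, and Cyp4f14 lies at 0 in every class after E4.5.

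The genes were far apart in level within E4.5 endoderm-like cells. Per kilobase of exon, Srgn stood highest at 1193 CPM, followed by Cited1 at 232, Aqp8 at 138, Plac1 at 95.5, Cyp4f14 at 77.1, Amot at 52.7, Bag2 at 39.7 and Fam198b at 22.97. These are sums over embryos of unequal depth, and the order varied between embryos below Srgn, which was highest in all 5. Plac1, for example, lay above Aqp8 in embryo 4 (136 against 61.8) and in embryo 3 (137 against 128). In E4.5 epiblast-like cells the same scale gave 13.9 for Srgn and at most 4.85 for the others. Log2 folds of 1 or more, endoderm-like over epiblast-like, were fitted for all 8 genes, as they were for 33.6% of the 14611 genes tested, and since this difference chose the genes nothing is read from it.

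Cited1 encodes a transcriptional coactivator that binds CBP and p300 and does not itself bind DNA. Its mean log2(CPM + 1) in endoderm-like cells of E4.5 embryos 1 to 5 was 6.74, 7.99, 7.65, 7.24 and 8.14, and in epiblast-like cells 2.82, 1.55, 1.36, 1.51 and 0.51. The groups did not overlap, and reads were present in 50 of 51 endoderm-like cells. In the E5.5 embryo, the 8 endoderm-like cells ranged from 7.76 to 11.60 with a median of 10.64, above every E5.5 epiblast-like cell, whose highest was 5.56. Summed over cells, the level was 407, then 1494 and then 667 CPM, of which the last was 868 CPM in embryo 1 and 138 CPM in embryo 2, so E6.5 lay above E4.5 by embryo 1 and 2.95-fold below it by embryo 2. At E6.5 the endoderm-like means of embryos 1 and 2 were 9.09 and 7.39 and the epiblast-like means 7.14 and 5.31, and mesoderm-like cells of embryo 2 gave 6.21. Endoderm-like means were thus the highest within each embryo, but Cited1 was read in 14 of 15 epiblast-like and 24 of 24 mesoderm-like cells at this stage, where it had been read in 9 of 51 epiblast-like cells at E5.5.

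Amot encodes angiomotin, a scaffold of cell junctions that holds back the Hippo pathway effector YAP. Its means in E4.5 endoderm-like cells were 7.83, 8.37, 6.98, 7.92 and 8.98, and in epiblast-like cells 1.20, 0.00, 1.83, 1.71 and 0.47. Reads were present in 51 of 51 endoderm-like cells and in 7 of 19 epiblast-like cells. At E5.5 the endoderm-like cells ranged from 4.77 to 10.98 (median 9.25), and 3 of 51 epiblast-like cells had a read. The E6.5 means were 8.56 and 6.92 in endoderm-like cells, 6.69 and 5.41 in epiblast-like cells and 7.68 in the mesoderm-like cells of embryo 2. In embryo 2 the mesoderm-like mean was therefore above the endoderm-like mean of 3 cells. The summed level in endoderm-like cells was 443, 825 and 371 CPM in stage order, the last being 477 CPM in embryo 1 and 93.9 CPM in embryo 2, which by embryo 2 alone was 4.72-fold below E4.5.

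Aqp8 encodes a water channel of the aquaporin family. Embryos 1 to 5 at E4.5 had endoderm-like means of 6.84, 7.46, 5.71, 4.99 and 7.22, and 1 epiblast-like cell in 19 had reads. At E5.5 it split the endoderm-like cells, with values of 9.14, 8.86 and 8.68 in 3 cells and no read in the other 5, and no epiblast-like cell had a read. The share with a read was 37.5%, with an exact 95% binomial interval of 8.52% to 75.5%, which covers counting error only, against 94.1% (83.8% to 98.8%) at E4.5. The 5 cells without a read held 1398651 to 2559582 reads and the 3 others 1165240 to 3352786. At E6.5 the endoderm-like means were 5.09 and 4.27, the epiblast-like means 1.69 and 1.47, and the mesoderm-like mean of embryo 2 was 0.68, with no overlap between endoderm-like cells and the other classes in embryo means. The summed level was 218, 201 and 70.5 CPM at the 3 stages. The E4.5 value was 332 CPM without embryo 4 and 134 CPM without embryo 5, so its order against E5.5 rests on single embryos, and E6.5 was 3.09-fold below E4.5 with all embryos and 1.90-fold to 5.96-fold below without 1.

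Bag2 encodes a co-chaperone of Hsp70 that restrains the ubiquitin ligase CHIP. Its E4.5 endoderm-like means were 7.004, 4.80, 7.20, 5.45 and 5.92, and its highest epiblast-like mean was 0.82. At E5.5 endoderm-like values of 8.62, 4.47 and 2.34 were seen in 3 cells and 5 cells had no read, and 3 of 51 epiblast-like cells had one. At E6.5 Bag2 did not separate the classes, with endoderm-like means of 5.36 and 5.28, epiblast-like means of 5.36 and 4.03, and 5.90 in the mesoderm-like cells of embryo 2. In summed CPM, endoderm-like cells held 122, 49.1 and 61.6 at the 3 stages and epiblast-like cells 0.33, 3.20 and 47.5. The order of the E6.5 classes differed between the embryos, with 74.9 CPM in endoderm-like and 64.7 CPM in the 1 mesoderm-like cell of embryo 1, and 26.6 and 78.2 CPM in embryo 2. The E6.5 level was 1.97-fold below that of E4.5, and 4.56-fold below by embryo 2 alone.

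Srgn encodes serglycin, the core protein of proteoglycans stored in secretory granules. It was the most abundant of the genes, with E4.5 endoderm-like means of 9.86, 9.91, 9.51, 10.38 and 11.58 and epiblast-like means of 0.74, 0.00, 1.84, 1.65 and 4.22. Embryo 5 was highest in both classes, and its epiblast-like mean rests on 2 cells, of which 1 had reads. At E5.5 all 8 endoderm-like cells lay between 9.47 and 11.65 with a median of 10.87, within the E4.5 range of 8.73 to 13.53. At E6.5 the endoderm-like means were 5.94 and 6.72, below every E4.5 endoderm-like cell, and the highest single cell reached 7.88. Epiblast-like means at E6.5 were 4.58 and 2.92, and the summed level in endoderm-like cells was 2620, 2097 and 69.1 CPM at the 3 stages. Embryo 5 carried much of the first value, with 4669 CPM against 742 to 1799 CPM in the others. With it, E4.5 was 1.25-fold above E5.5 and 37.9-fold above E6.5, and without it the ratios were 0.743 and 22.6, so the order of E4.5 and E5.5 rests on embryo 5.

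Fam198b (also called Gask1b) encodes a Golgi-associated membrane protein. Its E4.5 endoderm-like means were 7.16, 7.42, 7.82, 5.33 and 7.56, with embryo 4 apart from the others, and the highest epiblast-like mean was 0.51. None of the 8 E5.5 endoderm-like cells had a read, for which the exact 95% upper limit is 36.9% of cells with a read. That limit does not say how many cells expressed the gene. Taking 3 reads over the class as the floor, the summed level was at least 1150-fold lower than at E4.5. This floor covers the counting of reads alone, and since reads can come from few cells it does not bound expression. A single E5.5 epiblast-like cell held 3460 reads, all those of its class, at a log2 level of 9.84. At E6.5 endoderm-like cells had reads again, at means of 1.94 and 1.85, against 0.00 and 0.36 in epiblast-like cells and 1.43 in the mesoderm-like cells of embryo 2. The E6.5 endoderm-like sum of 7.84 CPM was 28.1-fold below that of E4.5, and it came mostly from embryo 1 (10.5 CPM), since embryo 2 alone (0.898 CPM) was 245-fold below.

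Plac1, an X-linked gene named for its expression in placenta and known from trophoblast, had E4.5 endoderm-like means of 4.52, 5.54, 7.33, 6.56 and 4.39. Epiblast-like means were 0.00, 1.22, 0.43, 0.16 and 0.00, and the groups did not overlap. No E5.5 cell of either class had a read. By the same floor the endoderm-like level was at least 695-fold below that of E4.5, or at least 416-fold without E4.5 embryo 4. These ratios cover the counting of reads alone and do not bound expression. At E6.5 the endoderm-like means were 3.21 and 3.75, the epiblast-like means 1.31 and 0.43, and the sum in endoderm-like cells was 13.4 CPM, 9.97-fold below that of E4.5, with 5.97-fold when E4.5 embryo 4 and 17.4-fold when E6.5 embryo 1 was left out. Of 11 trophoblast markers, 10 had no read in endoderm-like cells at E5.5 and all had reads at E6.5, with Elf5 highest at 68.1 CPM. Rhox9 was the exception, at 14.4, 33.2 and 0.701 CPM in stage order. Against epiblast-like cells at E6.5 the direction of Elf5 depended on the scale, with 68.1 against 27.2 CPM summed and 3.07 against 4.08 in mean log2 level. At E4.5, where Plac1 was highest, Elf5, Krt7, Esx1 and Hand1 had no read in the 51 endoderm-like cells and the sum over the 11 trophoblast markers had a median of 5.33 CPM (0 to 107).

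Cyp4f14, a cytochrome P450 that hydroxylates fatty acids and leukotriene B4, was the most uneven gene at E4.5. Its endoderm-like means were 3.67, 5.74, 3.33, 6.91 and 3.43, and reads were present in 5 of 9, 3 of 4, 3 of 5, 17 of 19 and 7 of 14 cells. The highest means were those of embryos 4 and 2, which also had the highest shares of cells with a read. One epiblast-like cell, of embryo 4, had reads. How the counting treated any reads shared with other Cyp4f genes was not checked, so its level is uncertain. No cell of the 3 classes had a read at E5.5 or E6.5, for which the exact 95% upper limits on the share of cells with a read were 36.9% of E5.5 and 26.5% of E6.5 endoderm-like cells, for counting error in the cells of 1 and 2 embryos only. By the same floor the summed level was at least 973-fold lower at E5.5 and at least 1507-fold lower at E6.5 than the 186 CPM of E4.5. By the 3 cells of embryo 2 alone it was at least 415-fold lower at E6.5. These ratios also cover the counting of reads alone and do not bound expression.

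**Figure D2:**
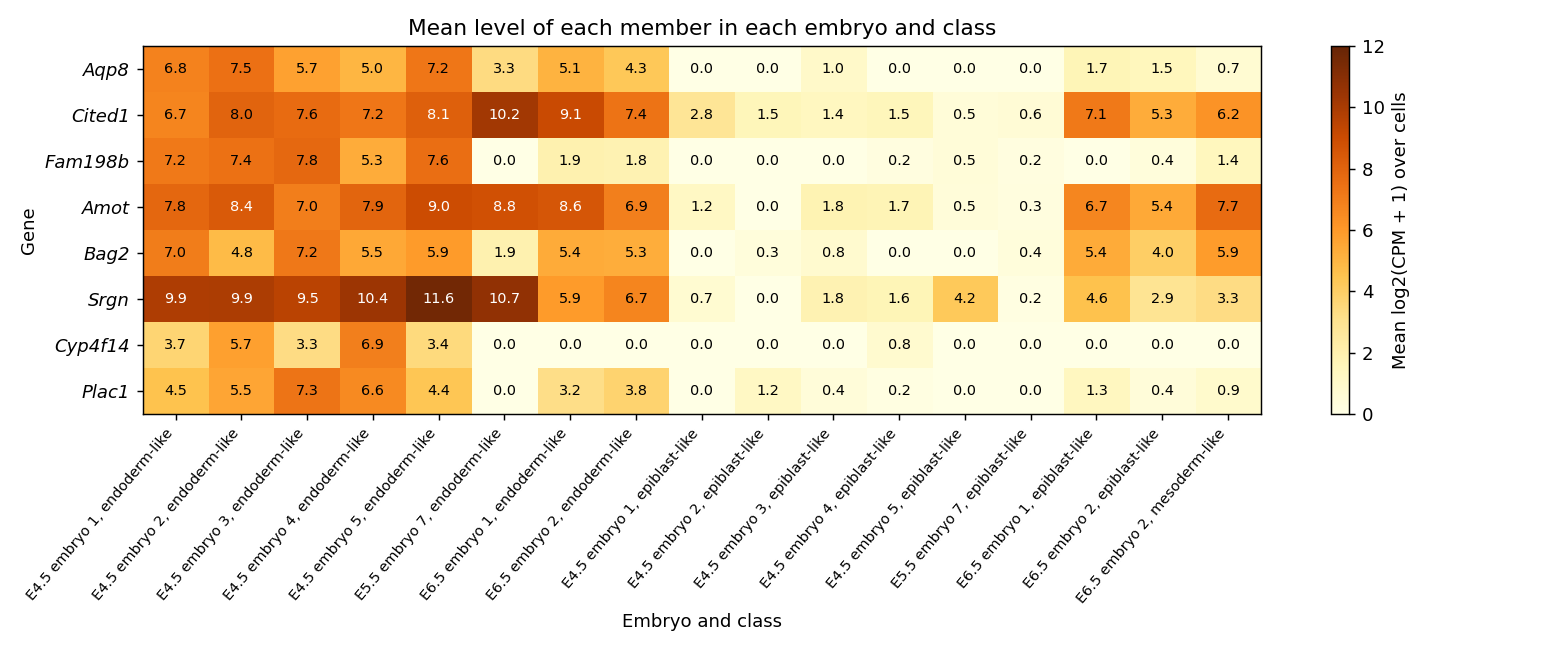
Mean log2(CPM + 1) over the cells of each embryo and class (columns) for each gene (rows), with the value printed in each field and darker fields for higher means. The 8 endoderm-like columns on the left hold 3 genes at 0.0 in the E5.5 embryo, and the E6.5 epiblast-like and mesoderm-like columns on the right are well above 0 for Cited1, Amot, Bag2 and Srgn.

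Folds fitted between stages describe the same order. In endoderm-like cells, 5 of the 8 genes lay at a log2 fold of -1 or less at E6.5 against E4.5 (Aqp8, Fam198b, Srgn, Cyp4f14 and Plac1), where 29.1% of all genes tested did. At E5.5 against E4.5 it was 4 of 8 (Fam198b, Bag2, Cyp4f14 and Plac1), where 51.3% did, so the share of lower genes at E5.5 was near that of all genes, whose median log2 fold was -1.13. For Srgn the fitted log2 fold of E5.5 over E4.5 was 0.39, and 0.20 with scaling by library size alone, while its summed CPM was lower at E5.5 than over all E4.5 cells but higher once embryo 5 of E4.5 was left out (2097 against 1559 CPM). With scaling by library size alone the fold of Aqp8 at E5.5 over E4.5 was -0.23 in place of 0.02, and that of Bag2 at E6.5 over E4.5 was -1.40 in place of -0.79. Against epiblast-like cells at E5.5, 5 of 8 genes had a log2 fold of 1 or more (Aqp8, Cited1, Amot, Bag2 and Srgn), where 18.6% of all genes did. The fold was -1 or less for 1 gene, Fam198b, whose reads came from 1 epiblast-like cell, and for 46.4% of all genes. For Bag2 the higher fold at E5.5 rests on few cells, since a stricter cell filter turned its fold from 4.10 to -2.21. These rest on 1 embryo at E5.5, on prior counts where a class had no read, and on E4.5 cells that chose the genes, and carry no test.

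The difference between endoderm-like and epiblast-like cells at E6.5 had not chosen the genes and has more than 1 embryo, so it could be tested. Reads were summed over the cells of each embryo and class, and the quasi-likelihood test of edgeR, with adjustment after Benjamini and Hochberg, called 140 of 14611 genes higher (0.958%) and 3 lower at an adjusted p under 0.05. The scaling of 1 sum stood apart, that of the 3 endoderm-like cells of embryo 2, whose TMM factor was 0.43 where those of the other 16 sums lay between 0.89 and 1.17. With scaling by library size alone, 50 genes were higher and 17 lower and the median log2 fold of all genes went from 0.00 to -0.63. Cyp4f14 had no read in either class at E6.5 and passed the filter on low counts through E4.5 alone, so its E6.5 fold holds no test. Of the other 7 genes none was called. An unadjusted p under 0.05 was given for 5 of them, as for 1028 of all genes (7.04%). DESeq2 called 2, Aqp8 and Fam198b, where it called 398 of all genes higher (2.72%). Log2 folds, endoderm-like over epiblast-like, were 4.02 ± 1.09 (SE) for Aqp8 (adjusted p = 0.076), 3.64 ± 1.06 for Fam198b (adjusted p = 0.11), 3.48 ± 1.37 for Plac1 (adjusted p = 0.41) and 2.66 ± 0.86 for Cited1 (adjusted p = 0.19). For Amot the fold was 2.37 ± 0.95 (adjusted p = 0.44), for Srgn 1.97 ± 1.38 (adjusted p = 0.86) and for Bag2 0.72 ± 0.86 (adjusted p = 0.97). By embryo 1 alone and embryo 2 alone the folds were 10.31 and 1.002 for Fam198b, 2.70 and 5.07 for Plac1 and 0.97 and 3.15 for Srgn. For Fam198b, embryo 1 had no read in epiblast-like cells, so its fold is set by the prior count. Embryo 2 had 6 reads of it in endoderm-like and 14 in epiblast-like cells, so its positive fold rests on the scaling. With scaling by library size alone the folds over all embryos were lower for each of the 7 genes, at 3.34 for Aqp8, 2.21 for Cited1, 1.87 for Amot, 1.12 for Srgn and 0.09 for Bag2, and none was called. The classes of 1 embryo come from the same animal, and with the embryo as a block edgeR called 184 genes higher (1.26%), among them 4 of these 7, namely Aqp8 (adjusted p = 0.00049), Cited1 (adjusted p = 0.0019), Amot (adjusted p = 0.015) and Srgn (adjusted p = 0.019), with folds within 0.1 of those above. On the scale of mean log2(CPM + 1), the endoderm-like mean of 6 genes was higher in 2 of 2 embryos by at least 1.36, and that of Bag2 by 0.0006 in embryo 1 and 1.25 in embryo 2. In summed CPM embryo 2 ran the other way for Fam198b, at 0.898 in endoderm-like and 1.16 in epiblast-like cells, and for Bag2, at 26.6 and 45.5. Among the 140 higher genes were Ttr (log2 fold 4.21 ± 0.84), Apom and Apoa4, which were not used to class the cells.

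**Figure D3:**
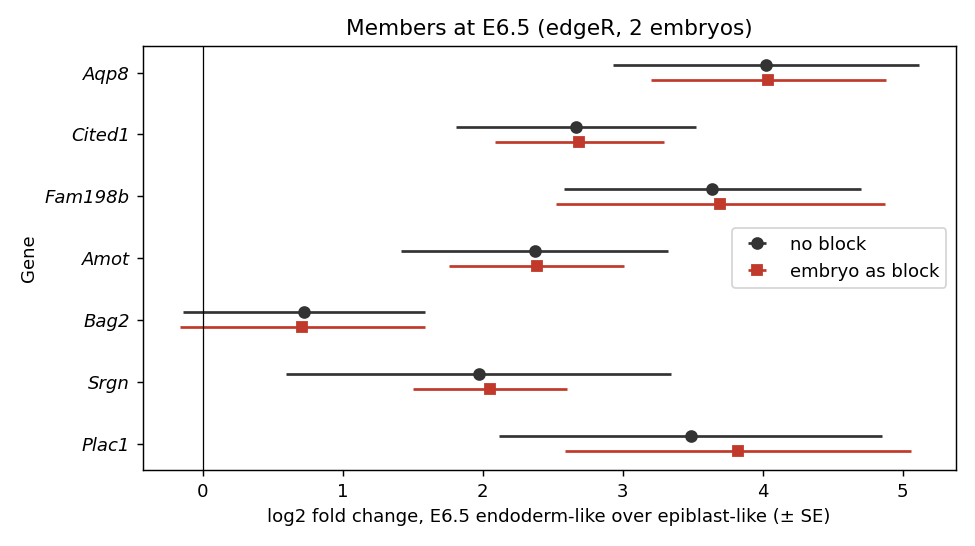
Log2 fold change of endoderm-like over epiblast-like cells at E6.5 with its SE (horizontal axis) for 7 genes (rows), fitted by edgeR without a block (circles) and with the embryo as block (squares). The folds move by less than their SE between fits, the error bars of Srgn shorten most under the block, and Bag2 is the only gene whose bars reach 0 in both.

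Because the E6.5 classes shade into each other, the genes were also set against the marker difference in every E6.5 cell. Pearson's r over the 36 cells of embryo 1 was 0.57 for Aqp8, 0.53 for Cited1, 0.50 for Amot, 0.42 for Fam198b, 0.35 for Srgn, 0.30 for Plac1 and 0.11 for Bag2. Over the 47 cells of embryo 2 the values were 0.26, 0.30, 0.34, 0.19, 0.31, 0.38 and 0.13 in the same order. Cells of 1 embryo share their source and differ in depth, and these values are a description.

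**Figure D4:**
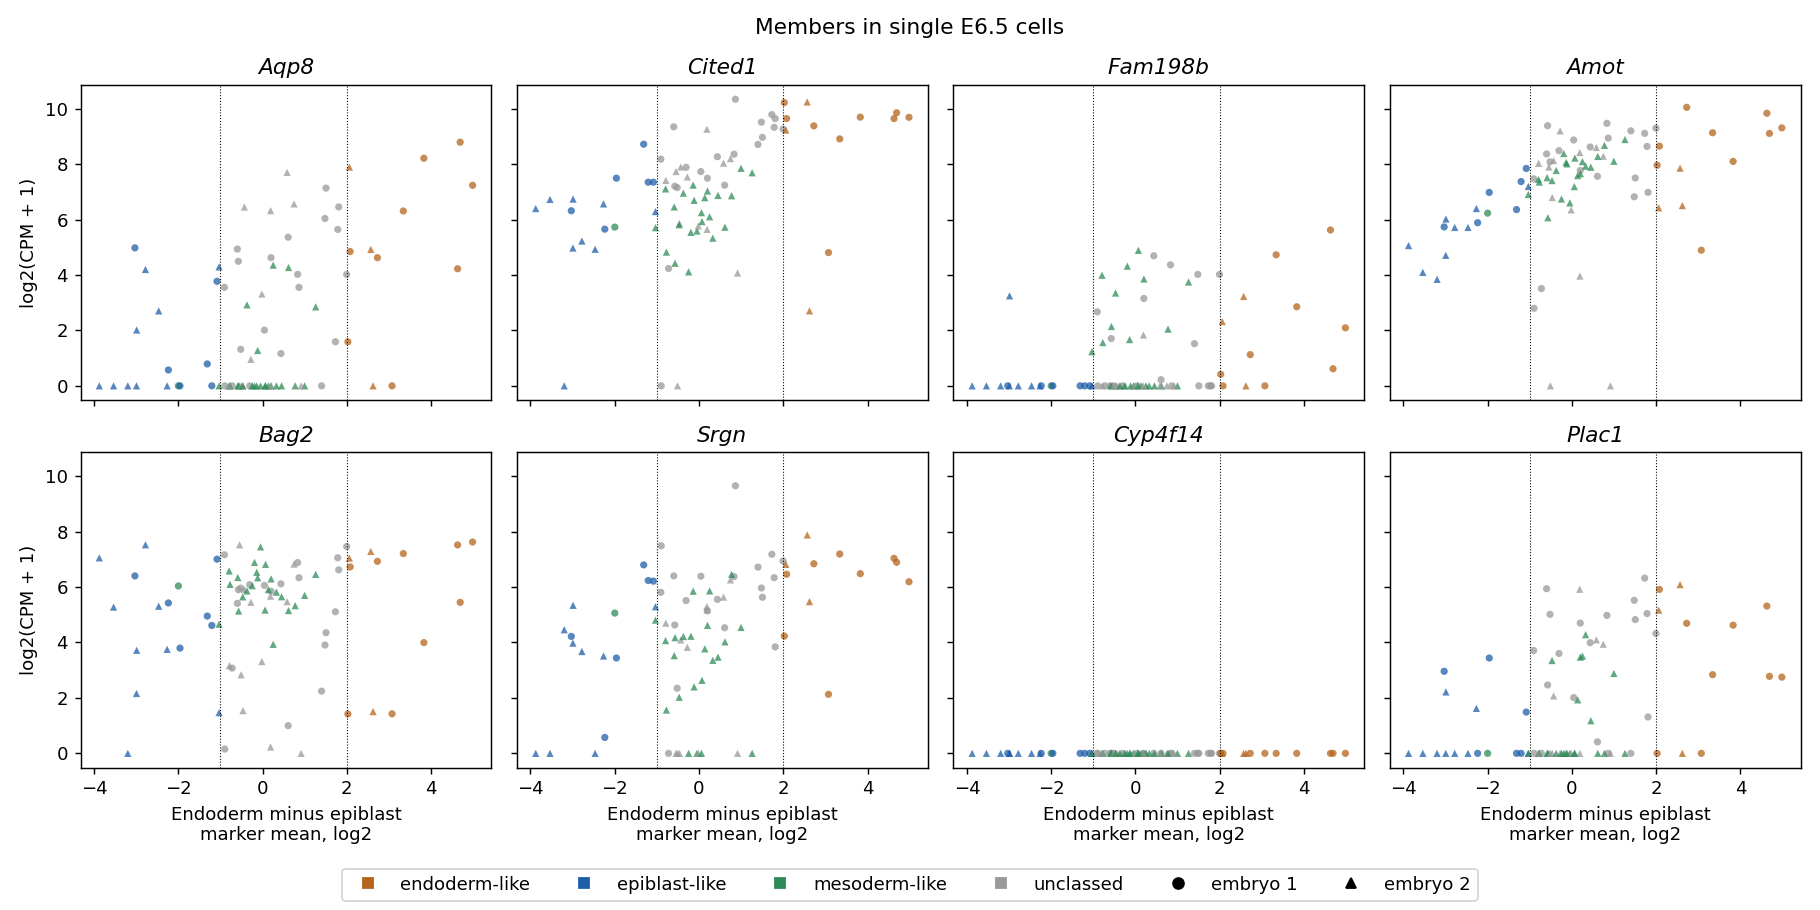
Level of each gene in every kept E6.5 cell, as log2(CPM + 1), against the endoderm minus epiblast marker mean on the log2 scale, with circles for embryo 1, triangles for embryo 2, colours for classes and dotted lines at the class thresholds of -1 and 2. Cells fill the range between the thresholds, Cited1 and Amot climb with the marker difference, and Bag2 lies at like levels across it.

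The genes were also set against abundant endoderm reads at E6.5, of which Cubn and Amn are among the 13 markers that set the classes and were high at E4.5 too. Per 1000 reads of Ttr, Apoa1, Cubn and Amn together, Aqp8 had 4.90 reads in endoderm-like and 3.64 in epiblast-like cells of E6.5 embryo 1, and 5.505 and 7.14 in embryo 2. Plac1 had 0.91 and 1.49 in embryo 1 and 1.15 and 0.83 in embryo 2. Fam198b had 0.616 and 0.00 in embryo 1 and 0.135 and 1.67 in embryo 2. For these 3 genes the epiblast-like ratio was the higher one in 1 embryo and the lower one in the other. Bag2 had 4.40 and 26.5 in embryo 1 and 4.02 and 65.2 in embryo 2, and Amot had 28.04 and 58.3 and then 14.1 and 65.4, so the epiblast-like ratio was the higher one in both embryos. Cited1 had 51.1 and 86.8 in embryo 1 and 20.7 and 76.7 in embryo 2, and Srgn had 4.26 and 23.03 and then 9.11 and 25.5.

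The levels of the genes did not follow each other tightly from cell to cell at E4.5. Among the 14 endoderm-like cells of embryo 5, Cyp4f14 and Srgn had a Pearson's r of -0.73 and Cyp4f14 and Aqp8 an r of -0.62. The first was the largest r in size over all pairs of the genes in embryos 1, 4 and 5, so it is the extreme of many values. The 7 cells with Cyp4f14 reads had Srgn levels of 9.39 to 12.13 with a median of 11.07, and the 7 without had 10.10 to 13.53 with a median of 12.57, so the groups overlapped. In the 19 cells of embryo 4 the values of r were -0.32 and -0.19, and in the 9 cells of embryo 1 they were -0.19 and -0.64, so the sign was the same in these 3 embryos and the size was not. At E6.5, the 9 endoderm-like cells of embryo 1 gave an r of 0.91 for Amot and Srgn and 0.84 for Bag2 and Srgn. For Amot and Cited1 and for Amot and Bag2 it was 0.82. One of these 9 cells was low in all these pairs, with only 6 of 13 endoderm markers at 10 CPM or more. The positive r of Amot and Cited1 rests on this cell, which had log2 levels of 4.89 and 4.81. Of the others, the cell highest in Cited1 (10.22) was the lowest in Amot (7.96).

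**Figure D5:**
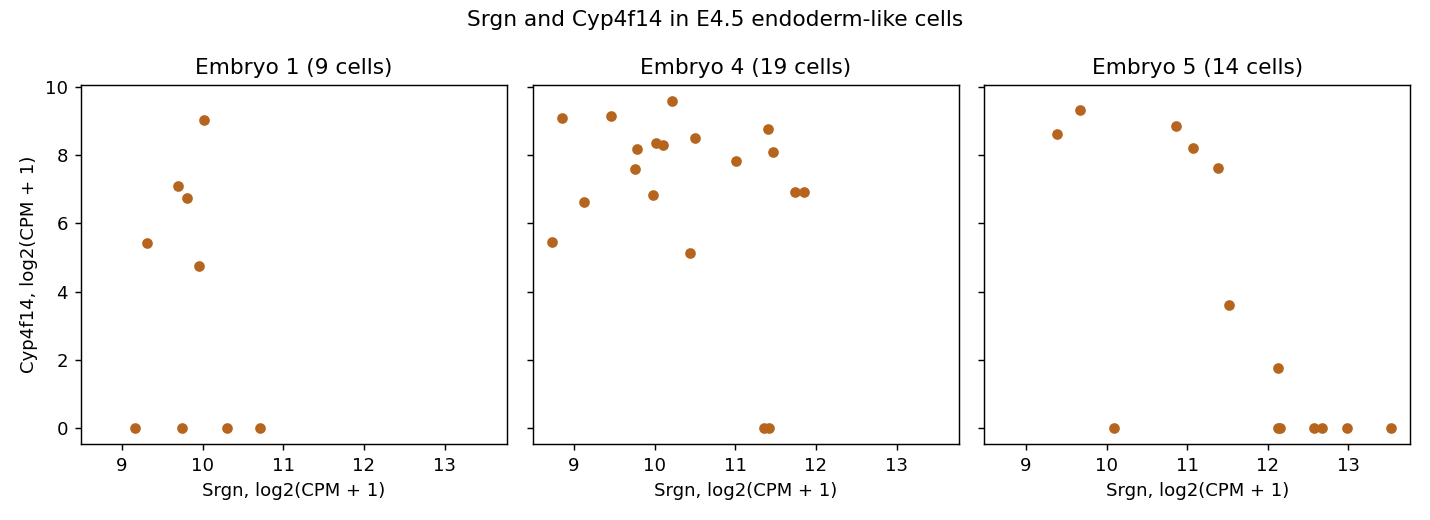
Level of Cyp4f14 against that of Srgn, both as log2(CPM + 1), in E4.5 endoderm-like cells (points) of the 3 embryos with at least 9 such cells. In embryo 5 the cells highest in Srgn hold no Cyp4f14 reads, while most cells of embryo 4 hold both genes.

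Genes with the most similar pattern were sought over the means of 17 embryo-by-class groups, among 11651 genes reaching 10 CPM in 1 of them. Cited1 and Amot were each among the 3 closest to the other (r = 0.97), together with Pla2g12b. Closest to Aqp8 were Dram1, Klb and Col4a2 (r = 0.97, 0.97 and 0.96), to Srgn Col4a1, Cubn and Flrt3 (0.95, 0.94 and 0.94), and to Fam198b Scube2, Pdgfra and Tent5a (0.98, 0.97 and 0.97). Pdgfra, a receptor that marks primitive endoderm, stood at 180, 26.2 and 16.7 CPM in endoderm-like cells of the 3 stages. Plac1 was closest to Fgfr3, Habp2 and Scube2 (0.95, 0.95 and 0.94), Cyp4f14 to Fam151a, Gbgt1 and Tssk5 (0.98, 0.94 and 0.94) and Bag2 to Rab2a, H13 and Elovl1 (0.95, 0.95 and 0.94). The groups share embryos and differ in depth and number of cells, and these values are a description. They include the E4.5 classes that chose the genes, and Col4a1, Col4a2 and Cubn are among the 13 markers that set the classes. Nothing is therefore read from a high r with endoderm genes.

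Relatives of the genes were followed as a fixed list of 61 genes, of which 49 passed the filter on low counts with 12 at a log2 fold of 1 or more and 12 at -1 or less at E6.5, where 24.2% and 24.4% of all genes lay, so their share was near that of all genes. None was called by edgeR in either direction, 3 having an unadjusted p under 0.05, and DESeq2 called 2 higher, Stub1 and Tead1, and 1 lower, Ccn2 (Ctgf), where it called 2.72% and 0.192% of all genes. Among other aquaporins, Aqp3 stood at 0.756, 0.128 and 37.9 CPM and Aqp11 at 8.64, 0.00 and 47.1 CPM in endoderm-like cells of the 3 stages, both highest at E6.5. Cited2 was read at 111, 48.2 and 60.3 CPM in endoderm-like and at 10.4, 2.49 and 38.7 CPM in epiblast-like cells, lowest at E5.5 in endoderm-like cells where Cited1 was highest. Of 18 angiomotin-like and Hippo genes, Tead1, a DNA-binding partner of YAP, differed most in favour of endoderm-like cells at E6.5 (log2 fold 2.56 ± 0.81, adjusted p = 0.17 by edgeR). Stub1, which encodes the CHIP ligase that BAG2 restrains, had a log2 fold of 2.81 ± 0.77 (adjusted p = 0.078 by edgeR). Its direction differed between the embryos, since its summed level was 119 CPM in endoderm-like and 165 CPM in epiblast-like cells of embryo 1, and 676 and 102 CPM in embryo 2. For Tead1 the same values were 44.2 and 27.5 CPM, and 112 and 30.1 CPM. In contrast, Bag1, a co-chaperone of the same family, had 0.33 ± 0.68. Among proteoglycans, Sdc4 was highest at E4.5 (312, 81.9 and 131 CPM) and Gpc3 at E5.5 (32.8, 1060 and 391 CPM). Fam20b, a kinase of proteoglycan synthesis, stood at 61.3, 0.064 and 12.9 CPM, Cyp4f16 at 13.7, 0.00 and 18.3 CPM, and Plac8 at 14.3, 0.00 and 17.9 CPM. Over the 49 relatives, 32 had a log2 fold of -1 or less at E5.5 against E4.5 in endoderm-like cells and 6 a fold of 1 or more, where 51.3% of all genes had -1 or less.

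The genes lie on 6 chromosomes of the GRCm38 build, all as protein-coding genes. Aqp8 lies at chr7:123462291-123468004, Fam198b at chr3:79884533-79946280, Bag2 at chr1:33745484-33757795, Srgn at chr10:62493833-62527451 and Cyp4f14 at chr17:32905070-32917342. Cited1 (chrX:102247381-102252181), Amot (chrX:145446425-145505181) and Plac1 (chrX:53069995-53240111) lie on the X chromosome, which is 37.5% of the genes, against 4.32% of the 21907 genes with a position. In E4.5 embryo 4, whose cells all had Y-linked reads, the endoderm-like means of Cited1, Amot and Plac1 lay within the range of the other embryos. Over 4 Y-linked genes, the median log2 fold in endoderm-like cells against E4.5 was -9.97 at E5.5 and -6.93 at E6.5. Y-linked reads thus differed with stage, and the part of this in the levels of the X-linked genes was not tested. Fam198b and Bag2 each overlap a gene model that was not counted, and whether reads were counted by strand is not given in the sources used here.

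GATA4 and GATA6 bind the words AGATAA and AGATAG, and likewise the words TGATAA and TGATAG, and in endoderm-like cells of the 3 stages Gata6 stood at 154, 24.03 and 18.6 CPM and Gata4 at 217, 162 and 102 CPM. These words were searched on both strands in the 250 bases before each RefSeq transcript start (GRCm38.p6). They were found for 2 of the 8 genes (25%), against 29.7% of all genes, so the windows hold no more of them than those of other genes. Both genes are among those that had no read in E5.5 endoderm-like cells, and the surroundings of each word are shown, with the word in capitals as it reads on the strand of the gene.
Fam198b, chr3:79885813-79885878, plus strand: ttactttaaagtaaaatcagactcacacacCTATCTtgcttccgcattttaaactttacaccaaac
Plac1, chrX:53240295-53240360, minus strand: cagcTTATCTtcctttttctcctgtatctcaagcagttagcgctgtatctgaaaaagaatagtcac
The word starts 87 bases before the transcript start in Fam198b and 246 bases before it in Plac1. Cyp4f14, the other gene without reads at E5.5, has none in its windows, and a match is a description of these letters only.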

How the data were processed

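The authors sequenced scM&T-seq RNA libraries and deposited raw read counts per Ensembl gene for each cell, without normalization. The paper's methods give no read length for these embryo libraries. Per the submitters' processing notes, the tools included Trim Galore 0.4.2 and 0.4.5, cutadapt 1.8.1, HISAT2 2.1.0, Bismark 0.19.0, featureCounts and R 3.4.3 with GRCm38. The annotation and the strand setting of the counting are not given in the sources used here. The bisulfite data were not used here.

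The 8 genes, the marker lists and the relatives were chosen with earlier results of these data known, and the class thresholds were set after the marker values had been seen. Groups and embryos were taken from the labels, which name 5 embryos at E4.5. The study's methods give fewer E4.5 embryos, and the cells labelled embryo 5 were mixed in Y-linked reads, so these may not be 5 independent embryos. Symbols were matched through GENCODE names for 21907 of 22084 identifiers. Ctgf and Cyr61 were matched as Ccn2 and Ccn1. The named genes are the 8 genes, their relatives at 10 CPM or more in a class, and the 3 genes of highest Pearson's r with each.

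Cells are not replicates, so counts were summed over the cells of each embryo and class with at least 2 cells, and all 17 sums entered 1 edgeR 4.0.16 fit (quasi-likelihood, TMM, filterByExpr by class, Benjamini-Hochberg, threshold 0.05), in which E6.5, with 2 embryos, shares its estimate of the spread with the other stages. p-values measure the spread between these embryos. Classes of 1 embryo come from the same animal, so the embryo pairs them. Their deviations from group means correlated at -0.0092 to 0.046 at E4.5 and 0.042 at E6.5. Same-numbered embryos of different stages share only a number. Scaling by library size alone was added after seeing the data. DESeq2 1.42.0, limma 3.58.1 and scanpy 1.11.5 served alternatives. The fit was tested on simulated data, where it missed most of the changed genes in the E6.5 contrast, so a gene that was not called is not shown to be alike between the classes. Depth limits precision as the read totals show. Reads carry no molecular identifiers, so intervals and floors (3 reads) hold for counting error alone. No doublet caller was run, since cells were picked by hand.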

Additional observations from a re-analysis of the deposited data

Results flagged for a closer look

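Means per embryo at E4.5 were searched for an embryo whose gap to the nearest other, over the whole range, passed Dixon's 95% value of 0.71 for 5 embryos. Of 16 groups tested, 3 passed. Fam198b was low in endoderm-like cells of embryo 4, at 5.33, with a gap of 0.736 of the range, where chance flags about 1 in 20 groups. Aqp8 was read in epiblast-like cells of embryo 3 alone, at a mean of 1.01, and Cyp4f14 in those of embryo 4 alone, at a mean of 0.82. Both rest on 1 cell with reads, and since the other embryos are all at 0 the rate of chance flags does not hold for them.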

How the results depend on the processing

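At E6.5, 140 genes were higher and 3 lower in endoderm-like cells. Without 1 embryo the counts ranged from 1 to 195 higher and 2 to 7 lower, the lowest being the fit that lacks embryo 2 of E6.5, where 1 embryo is left at E6.5 and is assumed to vary like the others. DESeq2 called 398 higher and 28 lower, no filter on low counts 395 and 18, limma on mean CPM with equal weight per cell 78 and 99, E6.5 cells alone 1 and 0, and scaling by library size alone, chosen after seeing the data, 50 and 17. The fit with the embryo as replicate block called 184 higher and 18 lower. The count of the 8 genes called higher was 0, and was 4 with the replicate block, 5 with no filter, 2 by DESeq2, 1 by limma and 0 to 1 without 1 embryo (1, Aqp8, without embryo 3, 4 or 5 of E4.5). The fold at E6.5 was positive in 18 of 18 alternatives for each of the 7 genes with reads. Aqp8 was called in 7 of 18 (adjusted p 0.00027 to 1.0), Cited1, Amot, Srgn and Fam198b in 2 each, and Plac1 and Bag2 in 0.

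Between stages, the fold of Cited1 at E6.5 over E4.5 was 0.90, and -0.07 when embryo 1 of E6.5 was left out. That of Amot was -0.10, with 0.41 when embryo 2 of E6.5 and 0.23 when embryo 5 of E4.5 was left out. Bag2 at E5.5 rests on few cells, since the stricter cell filter took its fold over epiblast-like cells from 4.10 to -2.21. Endoderm-like cells with at least 9 of 13 markers, an alternative chosen after seeing the data, left 11 of 12 E6.5 cells and called 145 genes higher and 2 lower, with 0 of the 8 genes among them. Leiden clusters gave no endoderm-like class at E5.5 and no epiblast-like class at E6.5, so those contrasts were not run there. The clusters did not match the marker classes at these stages. At E5.5, 7 of the 8 endoderm-like cells fell in the 42-cell cluster named epiblast and 1 in an unclassed cluster. At E6.5 the cluster named endoderm held 25 cells, of which 9 were endoderm-like by markers. It had 8 of 11 trophoblast markers raised. Thinning each cell to 50000 reads moved 16 of 56 shares of cells with a read outside their intervals. A pseudocount of 10 moved 17 of 24 differences between classes by more than 1 SD and changed the sign of 0. The cause of these changes was not tested, other than the smaller number of embryos or cells by construction.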

Other observations

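Cells that fell in no class were left out of the comparisons. The 5 such cells at E4.5 had Srgn levels from 7.82 to 10.83 and Cited1 levels from 2.05 to 5.93 on the log2(CPM + 1) scale, with reads of both in every cell, while Plac1 was read in 1 of them and Cyp4f14 in 2. In the 32 such cells at E6.5 the summed levels were 303 CPM for Cited1, 261 CPM for Amot, 61.8 CPM for Srgn, 41.1 CPM for Bag2, 30.9 CPM for Aqp8, 13.9 CPM for Plac1 and 1.58 CPM for Fam198b, with no read of Cyp4f14.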
